A study of Mus musculus with 4 samples.

Results

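Aminoacyl-tRNA synthetases are the enzymes that join each amino acid to its transfer RNA, the step that sets the genetic code. The 35 genes described here were taken by symbol from a list of 19 cytosolic or shared enzymes and 16 mitochondrial enzymes, out of 50600 genes in the count tables, and all 35 were found. They were read in 4 libraries of 1 kind of sample, primary T cells of mouse strain C57BL/6NJ, and all 4 file names carry the words activated bulk and 72 h, with the prefix mmTh0. The labels number the libraries as biological replicates 1 to 4 and give them all the same donor identifier, with no sex, age or treatment. No second condition is labelled, so the comparisons are between enzymes within libraries and between the 4 libraries.

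Mammalian cells translate in 2 places. Cytosolic ribosomes read nuclear messages, and mitochondrial ribosomes read the few messages of the mitochondrial genome. Most amino acids therefore have 2 synthetases, each encoded by a nuclear gene, and the mitochondrial one carries the suffix 2 in its symbol. The exceptions are Gars and Kars, the glycyl and lysyl enzymes, which serve both compartments from 1 gene, and Qars, the glutaminyl enzyme, which has no separate mitochondrial partner because mitochondria make Gln-tRNA by amidating Glu-tRNA. Eprs is a fused enzyme that charges both glutamate and proline, and phenylalanyl-tRNA synthetase of the cytosol is built from Farsa (alpha) and Farsb (beta) subunits. In animals several cytosolic synthetases sit together in a multisynthetase complex, here represented by Dars, Eprs, Iars, Kars, Lars, Qars and Rars.

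Transcripts of cytosolic synthetases were several times more abundant than those of the mitochondrial enzymes. The median level was 159 TPM over the 19 cytosolic genes and 37.9 TPM over the 16 mitochondrial genes, where TPM (transcripts per 1000000) is a count divided by exon length and scaled so that each library has the same sum. All 35 members reached 1 TPM or more in each of the 4 libraries, as did 49.4% of 21764 protein-coding genes. Of the 19 cytosolic genes 15 averaged 100 TPM or more, and of the 16 mitochondrial genes only Lars2, the leucyl enzyme, did. These counts depend on the gene length used. They were 17 and 2 with the length of the main coding transcript, and 4 and 0 with 200 bases taken off each exon length. In that last setting a gene of 200 bases or fewer was given a length of 1 base. This adds to its weight in the sum that scales each library, and the part of it in the lower counts was not tested.

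The promoters of several cytosolic genes share a short sequence, shown here because it is the site of a known regulator of these genes, and no match to it was found among the mitochondrial genes. When amino acids run short, the kinase encoded by Eif2ak4 leads to production of the transcription factor Atf4, which binds C/EBP-ATF response elements, and synthetase genes are among its known targets in mammals. The core of this element, TGATGNAA or TTNCATCA on the other strand, was searched in the RefSeq promoters of build GRCm38.p6, which run from 250 bases before to 50 bases after the annotated start. Of the members, 26 of 35 matched a promoter by symbol. The core was found in 5 of 12 cytosolic promoters (41.7%) and in 0 of 14 mitochondrial ones. Among 27025 genes with a RefSeq promoter, 4.51% held it. The 5 genes were Aars, Gars, Iars, Tars and Yars. The windows below show the core in capitals with 20 bases on either side, 5′ to 3′ on the strand of the gene.
Gars (chr6:55037951-55037998, plus strand): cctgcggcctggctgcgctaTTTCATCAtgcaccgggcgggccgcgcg
Iars (chr13:49682117-49682164, plus strand): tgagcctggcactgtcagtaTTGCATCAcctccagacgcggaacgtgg
Tars (chr15:11399646-11399693, minus strand): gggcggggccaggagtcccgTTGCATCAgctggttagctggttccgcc
Yars (chr4:129189886-129189933, plus strand): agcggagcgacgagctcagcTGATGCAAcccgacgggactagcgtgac
The core began 30 bases before the start in Gars and 15 before it in Tars. It began 7 bases after the start in Iars and 3 after it in Yars. Aars held it at 2 places, 112 bases before and 9 bases after the start, and its whole promoter is shown with that of Aars2, the mitochondrial enzyme for the same amino acid, where no match was found.
Aars (chr8:111033592-111033891, plus strand): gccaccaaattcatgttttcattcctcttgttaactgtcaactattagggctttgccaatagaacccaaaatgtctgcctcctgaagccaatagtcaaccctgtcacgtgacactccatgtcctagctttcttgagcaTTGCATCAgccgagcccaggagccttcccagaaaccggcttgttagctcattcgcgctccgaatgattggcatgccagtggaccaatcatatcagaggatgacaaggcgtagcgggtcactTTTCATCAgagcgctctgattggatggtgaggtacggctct
Aars2 (chr17:45506582-45506881, plus strand): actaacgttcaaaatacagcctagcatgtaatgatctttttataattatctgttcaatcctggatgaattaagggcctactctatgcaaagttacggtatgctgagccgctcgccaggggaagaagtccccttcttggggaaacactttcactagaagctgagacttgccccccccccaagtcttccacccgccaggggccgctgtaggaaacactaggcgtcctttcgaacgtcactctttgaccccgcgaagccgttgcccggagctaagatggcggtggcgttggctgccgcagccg
By exon length the 5 cytosolic genes with a match had a median level of 198 TPM. The 7 cytosolic genes with a promoter and no match had 135 TPM, and both sets cover a wide range. With main transcript lengths this order turned, to medians of 137 TPM with a match (Tars) and 195 TPM without (Farsb). The levels thus do not set the genes with a match apart. A match describes these letters and does not show binding. Atf4 itself was listed at 624, 655, 616 and 651 TPM in replicates 1 to 4. Cars, Hars, Hars2, Lars, Nars, Pars2, Rars, Vars and Wars were not searched.

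Among the cytosolic genes, Gars had the highest level by exon length, with 385, 357, 376 and 353 TPM in replicates 1 to 4 and a mean of 368 ± 15.0 TPM (SD, n = 4, as for all values with ±). The gene lies at chr6:55038007-55079500 on the plus strand of mm10, and its enzyme charges glycine in both compartments. Nars, the asparaginyl enzyme, followed with 329, 335, 348 and 351 TPM, below Gars in all 4 libraries. Vars, for valine, had 294, 311, 353 and 330 TPM, and its range overlapped that of Nars. Hars, for histidine, had 305, 312, 302 and 310 TPM, within the range of Vars. Its coefficient of variation (CV, SD over mean) of 1.48% was the lowest of the 35 genes. Kars, the second enzyme used in both compartments, had 244, 248, 255 and 248 TPM, below every value of Hars. With main transcript lengths this order turned, with Kars at 383 TPM, Gars at 334 TPM and Hars at 213 TPM.

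The middle of the cytosolic order was closely packed. Farsb averaged 218 ± 13.7 TPM, Iars (isoleucyl) 205 ± 20.3 TPM and Tars (threonyl) 198 ± 8.17 TPM, and the ranges of these 3 genes overlapped. Rars (arginyl) at 165 ± 12.1 TPM, Lars (leucyl) at 159 ± 10.3 TPM and Sars (seryl) at 145 ± 3.20 TPM followed, and neighbours in the order of these 3 overlapped. Farsa averaged 135 ± 5.75 TPM and Dars (aspartyl) 124 ± 5.70 TPM. Wars, the tryptophanyl enzyme, averaged 115 ± 3.07 TPM and Qars 108 ± 5.00 TPM.

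Only 4 cytosolic genes averaged under 100 TPM. Aars, for alanine, had 90.0, 79.8, 99.9 and 92.3 TPM. Eprs had 81.1, 72.5, 86.4 and 75.3 TPM, overlapping Aars. Yars, for tyrosine, had 72.2, 69.9, 69.9 and 70.1 TPM, under every value of Eprs. Cars, for cysteine, was the lowest with 42.2, 40.6, 42.8 and 41.9 TPM, and stood clear below Yars in every library. Cars lies at chr7:143557230-143600090 on the minus strand of mm10.

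**Figure D1:**
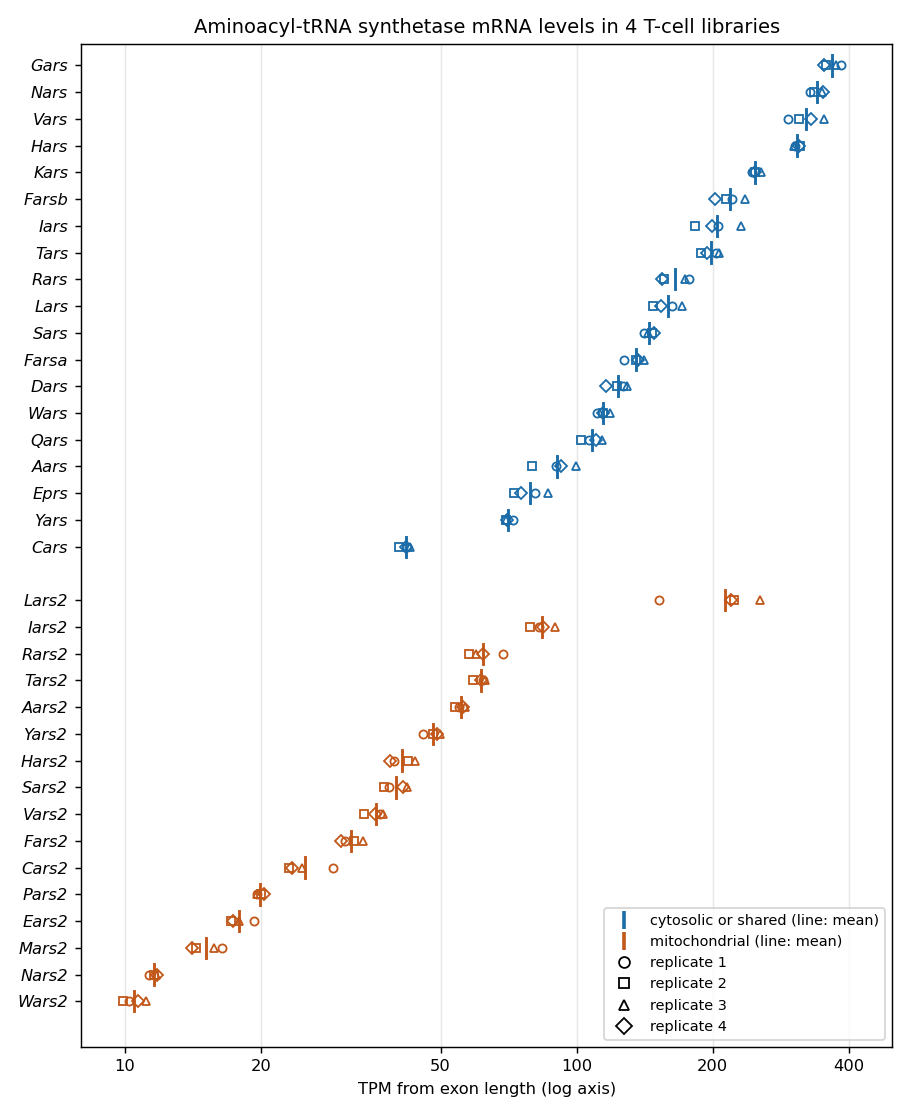
TPM of the 35 synthetase genes on a log axis, 1 marker per library, with cytosolic or shared genes above and mitochondrial genes below, each ordered by mean (vertical line). Cytosolic means run from 41.9 TPM for Cars to 368 TPM for Gars, and mitochondrial means run from 10.5 TPM for Wars2 to 213 TPM for Lars2, whose 4 markers are the most widely spread.

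Among the mitochondrial genes 1 stood far above the rest. Lars2, at chr9:123366927-123462666 on the plus strand, had 153, 223, 254 and 220 TPM, the highest of this compartment in every library and described further below. Iars2 came next with 82.5, 78.9, 89.7 and 84.2 TPM. Its level by exon length stood above that of every other mitochondrial gene apart from Lars2. With main transcript lengths Iars2 was at 94.4 TPM, below Tars2 at 123 TPM. Rars2 averaged 62.1 ± 4.82 TPM and Tars2 61.4 ± 1.62 TPM, with overlapping ranges. Aars2 averaged 55.4 ± 1.23 TPM and Yars2 48.2 ± 1.72 TPM, and their ranges did not overlap.

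Hars2 at 41.1 ± 2.37 TPM and Sars2 at 39.9 ± 2.28 TPM could not be ordered, since their ranges overlapped. Vars2 averaged 35.9 ± 1.48 TPM, Fars2 31.7 ± 1.61 TPM and Cars2 25.0 ± 2.64 TPM. Fars2 is a single-chain enzyme, unlike the cytosolic phenylalanyl enzyme with its pair of subunits. Pars2 averaged 19.9 ± 0.339 TPM and Ears2 17.9 ± 0.961 TPM. Mars2, the mitochondrial methionyl enzyme, averaged 15.1 ± 1.10 TPM. The lowest were Nars2, with 11.3, 11.6, 11.7 and 11.8 TPM, and Wars2, with 10.2, 9.91, 11.1 and 10.7 TPM.

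Set beside all protein-coding genes, 15 of 19 cytosolic and 1 of 16 mitochondrial synthetases lay in the top 10% by mean TPM. All 19 cytosolic and 9 mitochondrial genes lay in the top 25%. The compartments overlapped in level, since 6 mitochondrial genes exceeded Cars, the lowest cytosolic gene. Among cytosolic enzymes, the 10 of class II had a median of 208 TPM and the 9 of class I a median of 115 TPM. With main transcript lengths these medians were 204 and 169 TPM. The classes go by the fold of the catalytic domain, and the fused enzyme Eprs was counted in class I only. Among mitochondrial enzymes the medians were 39.9 TPM for the 7 of class II and 35.9 TPM for the 9 of class I, an order that turned to 36.5 and 63.9 TPM with main transcript lengths. In bulk RNA a lower level can come from fewer cells that make a transcript or from less RNA in each cell, and these cannot be told apart.

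Within each library the gap between compartments was stable. The cytosolic medians were 163, 148, 171 and 154 TPM in replicates 1 to 4, and the mitochondrial medians 37.5, 35.7, 39.8 and 37.3 TPM. Their ratio was 4.23 ± 0.113, with a range of 4.12 to 4.34. On the log2(TPM + 1) scale the cytosolic median exceeded the mitochondrial one by 2.05 ± 0.04, a difference far larger than its spread over libraries. Summed TPM was 3441 ± 112 over the cytosolic genes and 772 ± 46.5 over the mitochondrial genes. The mitochondrial genes thus held 17.3%, 18.6%, 18.8% and 18.6% of all synthetase TPM, a mean of 18.3 ± 0.666%. Without Lars2 the share was 14.0 ± 0.157%.

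For 15 amino acids both a cytosolic and a mitochondrial gene are among the members, which gives 16 comparisons within a library, since Eprs is set beside both Ears2 and Pars2, and Farsa and Farsb both beside Fars2, while Dars and Mars2 have no partner among the members. The cytosolic gene was higher in all 4 libraries in 15 of the 16, and the median difference was 1.88 on the log2(TPM + 1) scale. Of the 16, 12 exceeded 2-fold and 5 exceeded 5-fold by mean ratio, against 11 and 8 with main transcript lengths. With 4 libraries the exact two-sided sign-flip test for 1 pair cannot go below p = 0.125, the value all 15 of those pairs reached, so none could pass 0.05. Adding 1 before the logarithm makes differences of low genes smaller than they are.

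Asparagine showed the widest gap by exon length. Nars exceeded Nars2 by 4.76 ± 0.02 on the log2(TPM + 1) scale, and its TPM was 28.9 to 29.8 times that of Nars2 over the 4 libraries. With main transcript lengths it was 15.7 to 16.2 times that of Nars2, overlapping the 14.9 to 16.2 times of Wars over Wars2. With no division by length the widest difference was that of Eprs over Pars2, at 4.46 against 3.42 for the asparaginyl pair. Tryptophan came second, with Wars 10.6 to 11.6 times Wars2 and a difference of 3.33 ± 0.05. Vars was 8.01 to 9.46 times Vars2, a difference of 3.13 ± 0.11. Hars was 6.89 to 8.01 times Hars2, a difference of 2.87 ± 0.09. The 2 histidyl genes lie head to head on opposite strands and their annotations share 198 bases. Counting used strand, per the file headers.

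The phenylalanyl, glutamyl and prolyl pairs were intermediate. Farsb exceeded Fars2 by 2.74 ± 0.05 and Farsa exceeded it by 2.06 ± 0.06. Eprs exceeded Ears2 by 2.07 ± 0.09 and Pars2 by 1.93 ± 0.13. With main transcript lengths the differences were 3.35 for Farsa, 2.65 for Eprs over Ears2 and 3.30 for Eprs over Pars2. The seryl pair differed by 1.84 ± 0.08 and the threonyl pair by 1.67 ± 0.03. The threonyl difference fell to 0.16 with main transcript lengths and 0.29 with no division by length. The isoleucyl pair differed by 1.27 ± 0.07, and Rars was 2.48 to 2.91 times Rars2. The isoleucyl difference was 0.83 with main transcript lengths and 0.53 with no division by length.

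In 4 pairs the mean TPM ratio stayed under 2-fold by exon length. Cars was 1.46 to 1.78 times Cars2, a difference of 0.73 ± 0.13. Aars was 1.48 to 1.76 times Aars2, a difference of 0.69 ± 0.10, which was 1.37 with main transcript lengths. Yars averaged 1.46 times Yars2, with 1.58 times as the highest ratio, a difference of 0.54 ± 0.07. Leucine was the exception in direction, with Lars at 163, 148, 171 and 154 TPM beside Lars2 at 153, 223, 254 and 220 TPM. Lars was higher in replicate 1 alone and Lars2 in the other 3 libraries. The difference, Lars minus Lars2, was -0.39 ± 0.33 (exact two-sided sign-flip test, p = 0.25, n = 4). With main transcript lengths Lars was at 0.232 to 0.375 of Lars2, lower in all 4 libraries, and the difference was -1.90. With no division by length it was -1.92.

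**Figure D2:**
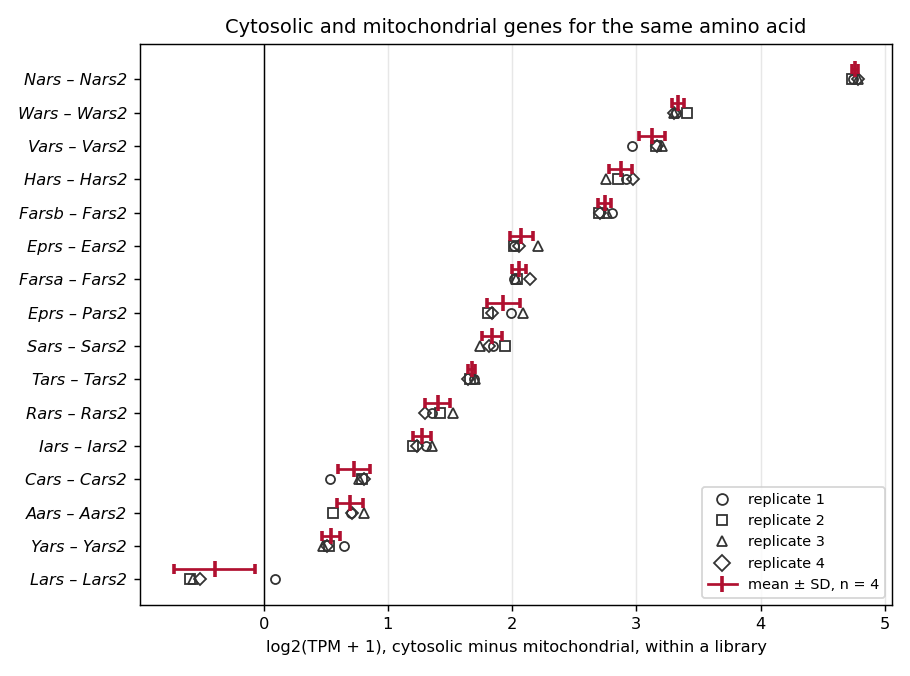
Difference in log2(TPM + 1), cytosolic minus mitochondrial gene of the same amino acid, for 16 pairs ordered by mean, with 1 marker per library and the mean ± SD (n = 4) in red. Values right of 0 mean that the cytosolic gene was higher. The pairs run from 4.76 for Nars and Nars2 to -0.39 for Lars and Lars2, the 1 pair whose markers fall on both sides of 0.

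Lars2 also varied most between libraries. Its CV was 20.2%, and its TPM in replicate 1 was the lowest of the 4, with the highest value 1.67 times the lowest. For the other 34 genes that ratio ran from 1.03 to 1.27. Lars2 made up 21.2%, 29.3%, 30.6% and 28.3% of the summed mitochondrial synthetase TPM. In an edgeR fit over 13681 genes, which asks whether a gene differs between libraries more than genes of its abundance do, Lars2 had a Benjamini-Hochberg adjusted p of 0.169. It was not called, nor under any alternative, where the adjusted p ran from 0.120 to 0.9999, the highest without replicate 1.

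A pair of genes at the ribosomal RNA sequence of chromosome 17 were also lowest in replicate 1 and highest in replicate 3. They were chosen after the values were seen. Of protein-coding genes at a mean TPM of at least 1, 20.4% were lowest in replicate 1 and 42.0% highest in replicate 3. Gm42418, listed by RefSeq as a synonym of the 18S rRNA-related sequence Rn18s-rs5, had 2432, 3805, 4325 and 3766 TPM. Gm26917, its neighbour, had 433, 726, 901 and 744 TPM. Gm42418 had the order of Lars2 over the 4 libraries, while Gm26917 was higher in replicate 4 than in replicate 2. Lars2 TPM equalled 6.27%, 5.87%, 5.88% and 5.84% of Gm42418 TPM. In the same edgeR fit the adjusted p was 0.00187 for Gm26917 (0.000365 to 0.9999 over the alternatives) and 0.114 for Gm42418 (0.0430 to 0.9999). Both upper values are those without replicate 1, where Gm26917 was no longer called. A blastn search of 9 Lars2 transcripts against 359 ribosomal RNA and locus transcripts found 0 matches at an E-value of 1e-05 or less. The part of ribosomal RNA content in the level of Lars2 was not tested.

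**Figure D3:**
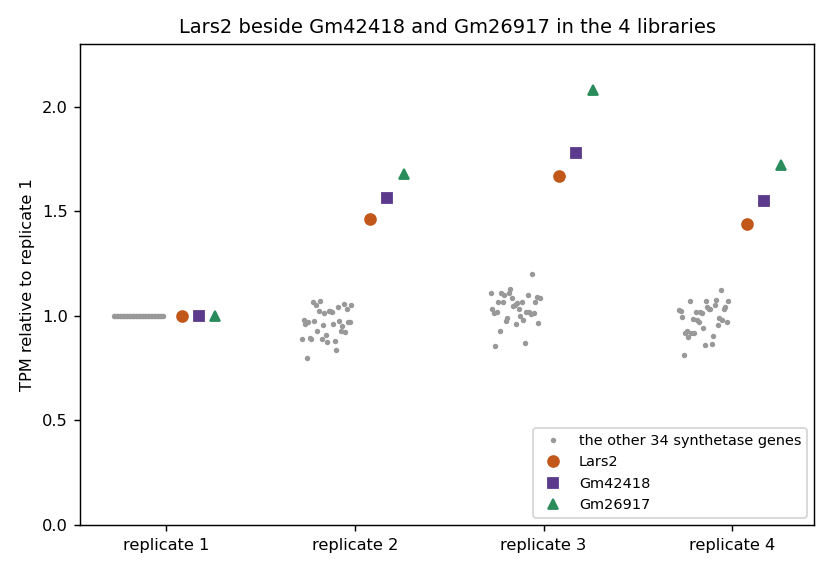
TPM relative to replicate 1 in each library (linear axis from 0) for Lars2, Gm42418 and Gm26917 in colour and for the other 34 synthetase genes in grey. In replicates 2 to 4 the coloured markers lie above all grey ones. Replicates have no order.

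The other synthetase transcripts varied less between libraries than Lars2, with CVs of at most 10.5%. The median CV was 4.61% over the members, against 7.10% over 8528 protein-coding genes with a mean TPM of at least 10. The sets were not matched for level, so this does not show that the members are steadier than genes of their level. The edgeR fit called 0 of 35 members at an adjusted p of 0.05, against 0.687% of 13681 genes, so that 0 among 35 is near the background and is no result about the members. At an unadjusted p under 0.05 it found 1 member, Lars2, against 7.01% of all genes, and the next smallest p was 0.334, for Cars2. The count of 0 held with DESeq2 size factors in that fit. Among cytosolic genes the CV ran from 1.48% for Hars to 9.89% for Iars, and among mitochondrial genes other than Lars2 from 1.70% for Pars2 to 10.5% for Cars2. Counts of members ran from 845 to 67707 per library, and at the lowest count the counting error is 3.44%.

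Members were most often highest in replicate 3 and lowest in replicate 2. Of the 35 members 23 (65.7%) were highest in replicate 3, against 42.0% of 11054 protein-coding genes at a mean TPM of at least 1. In 16 cases they were lowest in replicate 2 (45.7%), against 42.8% of those genes. Long genes deviated in the same way, since the 2843 protein-coding genes of at least 5472 exon bases had median log2 deviations of 0.05, -0.11, 0.12 and -0.05 from their own means in replicates 1 to 4. For the 2844 genes of at most 3093 bases these were -0.007, 0.029, -0.028 and 0.017. The part of gene length in the members' variation was not tested.

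The 7 subunits of the multisynthetase complex had a median of 159 TPM, against 172 TPM for the 12 other cytosolic genes. On the log2(TPM + 1) scale the difference of medians was -0.09 ± 0.08, and its sign turned with the gene length used, to 0.21 with no division by length and to 0.019 with the length of the main coding transcript. Within the complex, levels by exon length ran from Kars at 249 ± 4.72 TPM to Eprs at 78.8 ± 6.19 TPM. With main transcript lengths they ran from Kars at 383 TPM to Lars at 110 TPM, and Eprs was second at 202 TPM. Of the scaffold proteins, Eef1e1 had 310, 300, 241 and 252 TPM and Aimp2 156, 165, 142 and 150 TPM. Aimp1 was lower, with 38.5, 37.6, 33.4 and 36.5 TPM. Eef1e1 had an adjusted p of 0.427 in the edgeR fit.

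The subunits of phenylalanyl-tRNA synthetase assemble in equal numbers, and their transcripts were compared within libraries. Farsa had 127, 135, 141 and 136 TPM and Farsb 220, 215, 235 and 202 TPM. Farsa was lower in all 4 libraries, at 0.577 to 0.674 of Farsb and a log2(TPM + 1) difference of -0.69 ± 0.10 (exact two-sided sign-flip test, p = 0.125, n = 4, the smallest possible). This order turned to a difference of 0.26 when the length of the main coding transcript was used in place of all annotated exons.

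The length used matters because the files give the bases of all annotated exons of a gene, while cells use particular transcripts. Eprs showed it most among the cytosolic genes, with 78.8 TPM by exon length and 202 TPM by its main coding transcript. Lars2 had 213 and 420 TPM in the same order, and Cars2 25.0 and 66.0 TPM. With main transcript lengths 8 of 35 members were over 1.5 times higher and 0 over 1.5 times lower. With 200 bases taken off each exon length all 35 were lower, by 2.38 to 2.62 times, so their levels relative to each other moved little. The floor on short genes given above applies here. The fall is thus one in the share of the scaling sum and does not show a change against genes of other lengths. With main transcript lengths the cytosolic and mitochondrial medians were 176 and 37.5 TPM. With those lengths the cysteinyl pair turned to -0.15, Cars minus Cars2. Then 14 of 16 pairs had the cytosolic gene higher in all 4 libraries.

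**Figure D4:**
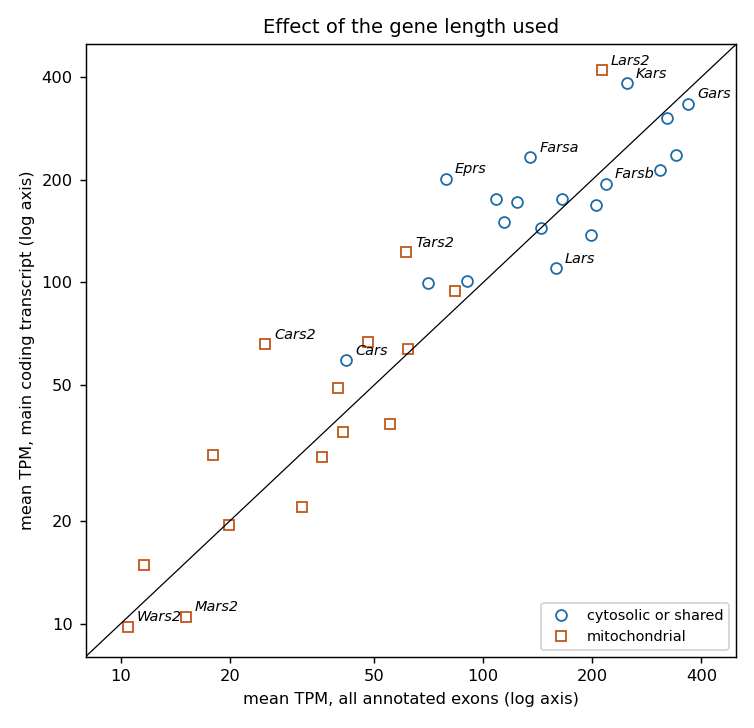
Mean TPM of the 35 members over 4 libraries computed with the bases of all annotated exons (horizontal) and with the main coding transcript (vertical), both on log axes, with the line of equality. Eprs moves up to 202 TPM, Lars2 to 420 TPM and Cars2 to 66.0 TPM, above Cars at 59.3 TPM.

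Genes that work beside the synthetases were all expressed. Of 21 listed, all 21 reached 1 TPM or more in each library, as did 49.4% of all protein-coding genes. The edgeR fit called 0 of the 21 as variable, against 0.687% of all genes tested. At an unadjusted p under 0.05 it found 1, Eef1e1, against 7.01% of all genes. Neither count from the fit is a result about these genes. The mitochondrial amidation of Glu-tRNA to Gln-tRNA needs Ears2 and a complex of Gatb, Gatc and Qrsl1, which averaged 26.8 ± 2.67, 40.2 ± 1.29 and 21.3 ± 0.906 TPM beside Ears2 at 17.9 ± 0.961 TPM. Mtfmt, which formylates the initiator Met-tRNA in mitochondria, averaged 25.0 ± 1.70 TPM beside Mars2 at 15.1 ± 1.10 TPM. These 6 transcripts lay between 15.1 and 40.2 TPM. Selenocysteine is made on its own tRNA from serine by Pstk, at 6.76 ± 0.340 TPM, and Sepsecs, at 14.5 ± 0.928 TPM, both far under Sars at 145 ± 3.20 TPM.

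Enzymes that clear or repair tRNAs were at modest levels. Trnt1, which adds the CCA end to tRNAs, averaged 64.8 ± 2.81 TPM. Dtd1 and Dtd2, which remove D-amino acids and mischarged residues from tRNA, averaged 44.5 ± 3.15 and 16.6 ± 0.955 TPM. The peptidyl-tRNA hydrolase Ptrh2 averaged 30.2 ± 2.33 TPM and the related Ptrhd1 10.7 ± 0.309 TPM. The editing-domain genes Prorsd1 and Aarsd1 averaged 15.1 ± 1.36 and 3.12 ± 0.385 TPM. Tarsl2, a paralog of the threonyl enzyme, averaged 10.6 ± 0.870 TPM, far under Tars. Of the genes that sense uncharged tRNA, Eif2ak4 averaged 27.9 ± 2.17 TPM and its activator Gcn1l1 65.1 ± 8.01 TPM.

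Library totals ran from 49613182 to 94222415 counts. The label of T cell fitted the markers, since Cd3e, Trac, Trbc2, Cd4 and Cd5 summed to between 5927 and 6265 TPM. CD8 T-cell markers summed to at most 18.2 TPM, B-cell markers to 2.28, macrophage markers to 3.89, natural killer markers to 0.483 and erythroid markers to 0.133, and the neutrophil markers S100a8 and S100a9 were at 0 in all libraries. Since all libraries carry 1 donor identifier and nothing says that the cultures were separate, the p-values given cover only the spread among these libraries, which may be technical.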

How the data were processed

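The deposited values are raw counts per gene, 1 table per library. They were made by the authors with featureCounts 1.4.6-p4, per the file headers, from read pairs with both ends aligned, on the reverse strand and over the exons of each gene in GENCODE mouse release 13, from an alignment whose name includes STAR, on mm10 per the labels. The labels call the assay total RNA-seq, while the linked library protocol is named for PolyA+ RNA. The sources used here do not settle which holds.

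TPM was computed here by dividing each count by the gene's deposited exon length. Symbols came from GENCODE mouse release 21, where 50376 of 50600 identifiers matched. edgeR 4.0.16 (R 4.3.3) fitted all genes passing filterByExpr with TMM factors, a trended dispersion and an intercept, and each deviance was compared with a chi-square distribution. The fit was tested on simulated data. Pairs were compared on log2(TPM + 1) with a two-sided exact sign-flip test over 16 sign patterns. Other contrasts between sets of genes are descriptions. All 35 members and 21 further genes were to be named by rule, and 1 of the 21 is not reported here. The members and lists were chosen with earlier results of these data known. Promoter sequences are RefSeq's for GRCm38.p6. Protein signatures listed in the plan were not searched.

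Alternatives covered the pseudocount, gene length, filters, normalization, dispersion, members and each replicate left out. Library totals of 49613182 to 94222415 counts leave a counting error of 3.44% at the lowest member count. This covers counting error only. Other steps used Python 3.11.15 with pandas 2.3.3, matplotlib 3.10.9 for figures, and blastn 2.17.0.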

Additional observations from a re-analysis of the deposited data

Results flagged for a closer look

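Of 75 sets of 4 values examined, 8 had 1 value set far apart from the other 3 by Dixon's criterion, where chance gives about 1 in 20. Among the 35 members this was Yars, at 72.2 TPM in replicate 1. Among the neighbouring genes, replicate 4 stood apart for Mtfmt at 22.4 TPM and for Aarsd1 at 2.55 TPM. Among the differences in log2(TPM + 1) within libraries, replicate 1 stood apart for Cars minus Cars2 at 0.53 and for Lars minus Lars2 at 0.095. Replicate 4 stood apart for Farsa minus Fars2 at 2.14 and replicate 2 for Wars minus Wars2 at 3.40. The mitochondrial share of synthetase TPM was set apart in replicate 1, at 17.3%, the library with the lowest Lars2.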

How the results depend on the processing

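No paired analysis was possible because the labels give 1 group, so replicate numbers pair no samples, and the gene pairs were compared within libraries. The alternatives with main transcript length and those without Lars2 were chosen after seeing the data, as were those for the complex. The median pair difference of 1.88 became 2.31 with no division by length, 1.79 with 200 bases taken off each exon length and 2.04 with main transcript length. The cytosolic minus mitochondrial level of 2.05 became 1.89 with no division by length, 2.18 with main transcript length, 2.11 as a mean over members, 1.99 without Gars, Kars and Qars and 2.11 without Lars2. The mitochondrial share of 18.3% became 26.1% with no division by length, 23.4% with main transcript length and 14.0% without Lars2. The complex minus other cytosolic level of -0.09 turned to 0.21 with no division by length and 0.019 with main transcript length. Cars minus Cars2 turned to -0.15 with main transcript length. Farsa minus Farsb turned to 0.10 with no division by length and 0.26 with main transcript length. In the 3 changes of sign between single genes, and in that of the complex, the length used was all that was altered. All other pair values, 133 of 136, kept their sign. No member was called as variable under any setting, while the calls among all genes ran from 38 without replicate 2 to 617 with a common dispersion, against 94. In the 4 fits that left out 1 replicate each, no direction given here turned. Members' own levels moved beyond 1 SD in 66 of 210 recalculations, since a change of length rescales all genes. With 200 bases taken off each exon length, and short genes held at 1 base, all 35 were over 1.5 times lower. With main transcript length Tars minus Tars2 was 0.16 and Lars minus Lars2 was -1.90.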
